A study of Mus musculus with 72 samples.

Results

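The GIRK channels (G protein-gated inwardly rectifying potassium channels) and the muscarinic acetylcholine receptors were examined as 9 genes, 4 channel subunits (Kcnj3, Kcnj5, Kcnj6 and Kcnj9) and 5 receptors (Chrm1 to Chrm5). The members are the complete families by name, taken from the 53715 gene identifiers of the count files by matching Ensembl identifiers to mouse symbols, a rule that uses no measured value. In the heart, acetylcholine released by the vagus nerve binds the M2 receptor, the product of Chrm2, and the freed G protein beta-gamma dimer opens a channel made of GIRK1 (Kcnj3) and GIRK4 (Kcnj5), which slows the sinoatrial node. In neurons, channels made mostly of GIRK1, GIRK2 (Kcnj6) and GIRK3 (Kcnj9) carry the slow inhibition evoked by many Gi/o-coupled receptors. RGS proteins of the R7 family, stabilized by the atypical beta subunit Gnb5, end this signal by speeding GTP hydrolysis on the alpha subunit, and in the atria the partner of Gnb5 is RGS6. The M1, M3 and M5 receptors couple to Gq/11 and phospholipase C, whereas M2 and M4 couple to Gi/o.

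RNA was sequenced from 18 male mice of 18 weeks on the C57BL/6J background, 6 Gnb5-/-, 6 Gnb5+/- and 6 Gnb5+/+. The Gnb5-/- and Gnb5+/- mice carry a germline deletion of exon 3 of Gnb5, on both alleles or on 1, so every cell was affected from the start of development. Each mouse gave a library of its atria and one of its ventricles, and the Gnb5-/- and Gnb5+/+ mice also gave one each of cerebellum, hippocampus and cortex, which makes 72 libraries in 12 groups of 6. The tissues were taken whole, and the paper describes the atrial samples as holding heart muscle, sinoatrial and atrioventricular cells together. Other cell types of the tissue were not separated from these.

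Between 29204390 and 48807435 reads per library were counted on genes, with a median of 38864900. Gnb5 itself, in CPM (counts scaled to the library's size), fell from 33.4 in Gnb5+/+ atria to 17.4 in Gnb5+/- and 2.06 in Gnb5-/- atria, and from 102 to 11.9 in the cortex, in the direction of the labels. The markers of atrial muscle summed to 21730 to 39300 CPM in atria and 130 to 489 CPM in ventricles. A few libraries stood apart from the others of their tissue. Reads outside genes made up 6.86% and 8.32% of uniquely aligned reads in the cortex of Gnb5-/- mice 14 and 3 (13.06 to 15.56% in the other 10 cortex libraries), 8.02% in the cerebellum of Gnb5-/- mouse 12 (14.02 to 16.97% in the others) and 2.85% in the ventricles of Gnb5+/- mouse 4 (4.41 to 5.71% in the others). In these 3 brain libraries genes with longer exons were lower, with a correlation across genes between the deviation from Gnb5+/+ and the log2 exon length of -0.646 to -0.547, against -0.428 to 0.291 in the other 33 brain libraries. In the ventricular library of Gnb5+/- mouse 4 this correlation was -0.669, against -0.118 to 0.24 in the other 17 ventricular libraries. The main results that rest on these libraries are also given without them.

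The members lie at separate positions of the genome (GRCm38). Kcnj3 (ENSMUSG00000026824) lies at chr2:55435970-55598145 on the plus strand, Kcnj5 (ENSMUSG00000032034) at chr9:32314707-32344350 on the minus strand, Kcnj6 (ENSMUSG00000043301) at chr16:94748636-94997701 on the minus strand and Kcnj9 (ENSMUSG00000038026) at chr1:172320501-172329318 on the minus strand. Among the receptors, Chrm1 (ENSMUSG00000032773) lies at chr19:8663789-8683587 on the plus strand, Chrm2 (ENSMUSG00000045613) at chr6:36388084-36528414 on the plus strand, Chrm3 (ENSMUSG00000046159) at chr13:9875486-10360847 on the minus strand, Chrm4 (ENSMUSG00000040495) at chr2:91927249-91928688 on the plus strand and Chrm5 (ENSMUSG00000074939) at chr2:112479171-112480769 on the minus strand. Kcnj5 is the member on the chromosome of Gnb5, 42.96 Mb from it. The counted exons of Chrm4 and Chrm5, 1440 and 1599 bases, hold the coding sequence with no untranslated exon, and those of the other 7 members are 4288 to 7633 bases long. Exons of Kcnj3 share 1621 bases (31.1%) with the opposite-strand lincRNA Gm26794. The paper used a stranded library kit, but how the counting treated strand is not given in the sources used here. Reads on the shared bases may have been set aside as ambiguous, which would make Kcnj3 too low, or mixed between the pair. Gm26794 had group means of 0.507 to 6.96 CPM.

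The stretch that makes these channels selective for potassium, and a stretch by which the receptors engage G proteins, are shown because they mark the families' shared function and how far their members differ. The lines give the coding strand, 5′ to 3′ on GRCm38, all within a coding exon, and the capitals mark the 15 bases of the selectivity filter in the pore loop.
Kcnj3, chr2:55437603-55437665, plus strand: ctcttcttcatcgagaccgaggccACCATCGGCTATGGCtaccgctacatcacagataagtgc
Kcnj5, chr9:32322535-32322597, minus strand: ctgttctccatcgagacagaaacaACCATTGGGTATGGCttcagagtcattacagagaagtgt
Kcnj6, chr16:94832753-94832815, minus strand: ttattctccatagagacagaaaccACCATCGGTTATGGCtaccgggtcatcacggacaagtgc
Kcnj9, chr1:172326160-172326222, minus strand: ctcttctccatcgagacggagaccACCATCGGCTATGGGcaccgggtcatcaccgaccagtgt
The filter was identical in 12 to 14 of 15 bases between pairs of subunits, and over their whole coding sequences the subunits were between 66.9% (Kcnj3 and Kcnj5) and 72.9% (Kcnj5 and Kcnj6) identical. In the receptors the capitals mark the 9 bases of 3 codons at the cytoplasmic end of the third transmembrane segment.
Chrm1, chr19:8678272-8678328, plus strand: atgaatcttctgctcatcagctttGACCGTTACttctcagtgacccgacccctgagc
Chrm2, chr6:36523543-36523599, plus strand: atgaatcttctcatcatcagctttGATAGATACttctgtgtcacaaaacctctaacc
Chrm3, chr13:9878477-9878533, minus strand: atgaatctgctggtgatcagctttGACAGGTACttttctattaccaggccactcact
Chrm4, chr2:91927606-91927662, plus strand: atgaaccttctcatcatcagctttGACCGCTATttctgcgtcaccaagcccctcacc
Chrm5, chr2:112480359-112480415, minus strand: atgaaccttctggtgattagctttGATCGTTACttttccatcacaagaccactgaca
These were identical in 5 to 8 of 9 bases between pairs of receptors, and the coding sequences, of 1380 (Chrm1) to 1767 bases (Chrm3), were between 67.6% (Chrm4 and Chrm5) and 73.7% (Chrm1 and Chrm5) identical. The members therefore differ at many bases, and the counts were of uniquely aligned reads.

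The promoters of Kcnj3, Kcnj5 and Chrm2, which were higher in atria than in ventricles, are shown with the motifs found in them in capitals. Chrm3 was also higher in atria, and its promoter window (chr13:10360754-10361053, minus strand), not shown, held 0 matches to the motifs searched. Each runs from 250 bases before the start site to 50 bases after it, from RefSeq on GRCm38.p6, and 8 of the 9 members had an entry.
Kcnj3 promoter, chr2:55435720-55436019, plus strand: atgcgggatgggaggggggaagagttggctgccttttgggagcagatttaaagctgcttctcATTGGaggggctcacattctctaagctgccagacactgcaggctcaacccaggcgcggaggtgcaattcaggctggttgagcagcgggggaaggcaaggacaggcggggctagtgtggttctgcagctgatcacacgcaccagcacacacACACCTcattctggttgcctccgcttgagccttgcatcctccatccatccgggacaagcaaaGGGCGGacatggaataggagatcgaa
Kcnj5 promoter, chr9:32344295-32344594, minus strand: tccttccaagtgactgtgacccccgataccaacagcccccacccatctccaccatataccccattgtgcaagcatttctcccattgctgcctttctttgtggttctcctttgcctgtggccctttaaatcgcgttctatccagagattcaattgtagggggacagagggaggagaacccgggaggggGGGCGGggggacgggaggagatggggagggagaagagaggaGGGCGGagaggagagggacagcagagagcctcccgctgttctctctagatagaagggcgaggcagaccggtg
Chrm2 promoter, chr6:36387834-36388133, plus strand: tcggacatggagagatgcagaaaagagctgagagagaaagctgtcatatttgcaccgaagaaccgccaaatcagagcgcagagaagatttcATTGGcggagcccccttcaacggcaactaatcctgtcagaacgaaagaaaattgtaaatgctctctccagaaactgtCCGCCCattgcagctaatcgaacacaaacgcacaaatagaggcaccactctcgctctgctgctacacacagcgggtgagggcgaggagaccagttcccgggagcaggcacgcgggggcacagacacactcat
The motifs searched on both strands were the GC box GGGCGG (in 35.7% of the 32851 RefSeq promoters of this length), the CCAAT box CCAAT (37.4%), the TATA box TATAAA (13.6%), the GATA motif AGATAA (11.2%) and the T-box motif AGGTGT (13.7%), none of which overlaps another in these windows. Kcnj3 held a CCAAT box from base -188, a T-box motif from base -38 and a GC box from base 24 counted from the start site. Kcnj5 held GC boxes from bases -63 and -22, and Chrm2 held a CCAAT box from base -159 and a GC box from base -82. The letters of a TATA box or a GATA motif were not in these 3 windows. The windows had 10, 10 and 16 CpG sites, against a median of 7 over all promoters, and the matches are a description of letters.

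Levels are given as normalized FPKM, the CPM after TMM scaling over all 72 libraries divided by the annotated exon length in kilobases, as mean ± SD of the 6 mice of a group. In Gnb5+/+ mice the members divided between heart and brain (plot of levels by tissue and genotype). Kcnj5 and Chrm2 had their highest levels in atria and were low in brain, Kcnj6, Kcnj9, Chrm1, Chrm4 and Chrm5 had theirs in the brain and were at or near 0 in the heart, and Kcnj3 was present in every tissue. In bulk tissue, fewer cells of a type and less RNA per cell cannot be told apart.

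**Figure D1:**
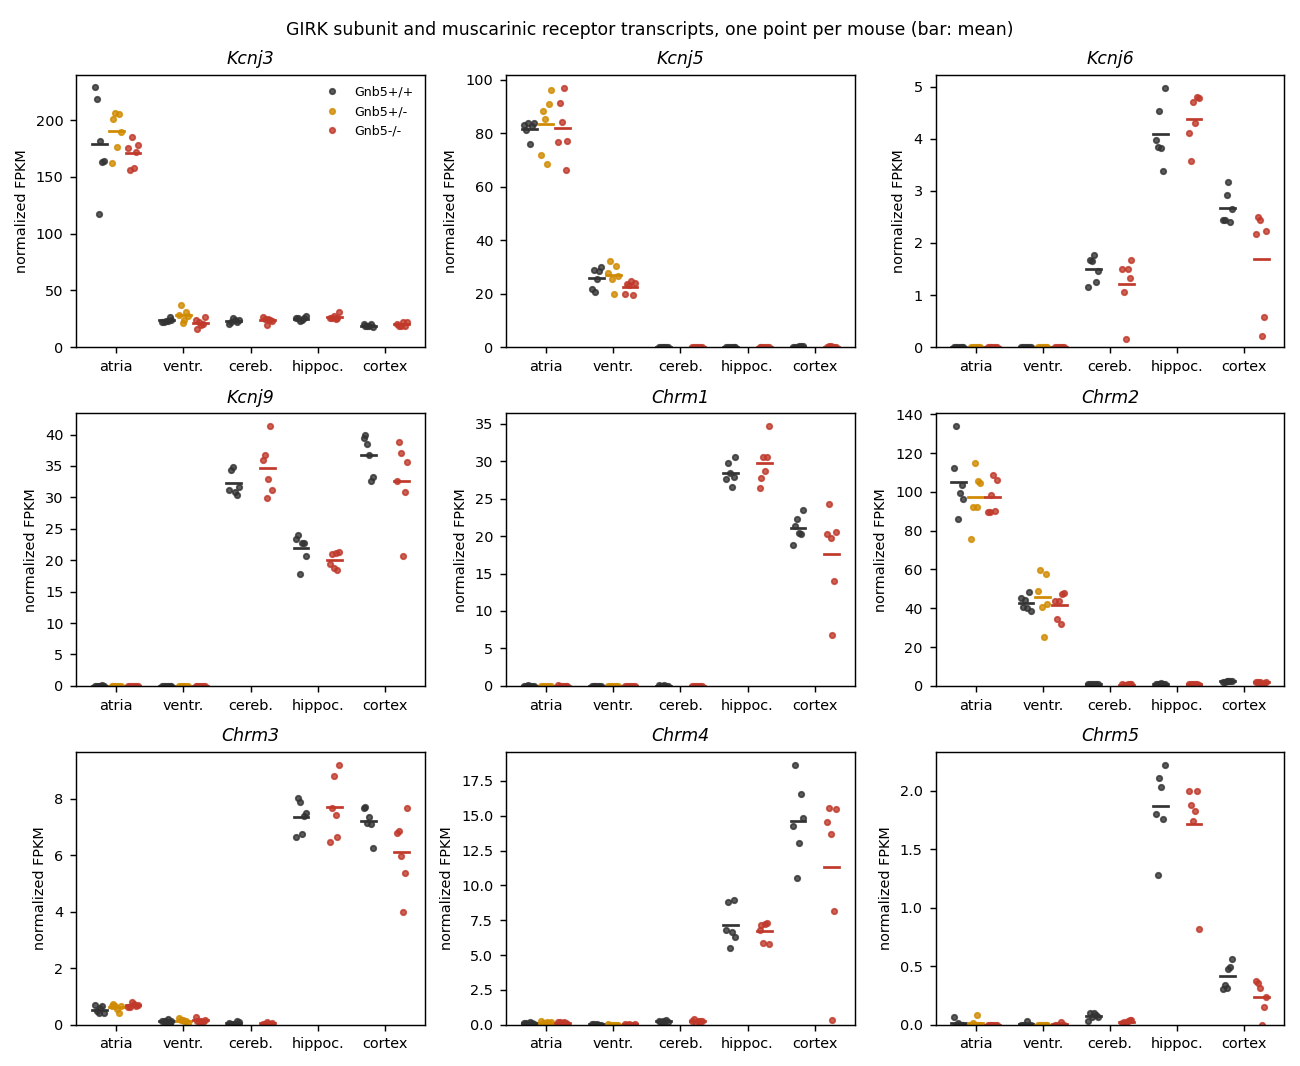
Normalized FPKM (reads per exon kilobase after TMM scaling, y axis of each panel) of the 9 genes by tissue and genotype (x axis), with 1 point per mouse and a bar at the mean of 6 mice. Kcnj3, Kcnj5 and Chrm2 were highest in atria (179, 81.7 and 105 in Gnb5+/+), Kcnj9 and Chrm4 in cortex (36.8 and 14.7), and the points of the genotypes overlap within a tissue.

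Chrm2, the receptor of vagal slowing, had 105 ± 16.5 FPKM in Gnb5+/+ atria (lowest mouse 85.9, median 102, highest 134) and 42.9 ± 3.75 in ventricles (38.6, 42.7 and 48.5). All 6 atrial libraries were above all 6 ventricular ones. Cortex, hippocampus and cerebellum had 2.30, 1.11 and 0.807 FPKM. In the brain Chrm2 serves partly as an inhibitory autoreceptor on cholinergic endings.

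Chrm3, a Gq/11-coupled receptor of smooth muscle, glands and neurons, was highest in hippocampus (7.36 ± 0.573) and cortex (7.20 ± 0.538), which overlapped. In Gnb5+/+ atria it had 0.536 FPKM (lowest 0.399, median 0.533, highest 0.696), in ventricles 0.142 and in cerebellum 0.0649. Chrm1, the main Gq/11-coupled receptor of forebrain pyramidal neurons, had 28.4 ± 1.46 in hippocampus and 21.1 ± 1.63 in cortex, and 0.0448 in cerebellum. These forebrain groups did not overlap, with 26.5 to 30.5 in hippocampus and 18.8 to 23.4 in cortex.

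Chrm4, a Gi/o-coupled receptor best known from striatal neurons, had 14.7 ± 2.80 FPKM in cortex, 7.16 ± 1.39 in hippocampus, 0.247 in cerebellum and 0.106 in atria. The markers of a striatal list summed to 54.7 to 164 CPM in Gnb5+/+ and 98.8 to 145 CPM in Gnb5-/- cortex, and their part in the Chrm4 level was not tested. Chrm5, the Gq/11-coupled receptor of midbrain dopamine neurons, had its highest level in the hippocampus, with 1.87 ± 0.338 FPKM, followed by 0.416 ± 0.107 in cortex and 0.0757 ± 0.0258 in cerebellum.

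Kcnj3, whose product GIRK1 cannot reach the membrane without another subunit, had 179 ± 41.1 FPKM in Gnb5+/+ atria (lowest 117.2, median 173, highest 230). Hippocampus (25.03 ± 1.33), ventricles (23.4 ± 1.77) and cerebellum (22.9 ± 1.98) followed, and cortex had 18.7 ± 1.16. Kcnj5, the partner of Kcnj3 in the heart, had 81.7 ± 2.96 FPKM in atria (75.9, 82.9 and 83.7) and 25.8 ± 3.97 in ventricles (20.4, 27.0 and 30.0). In the 3 brain regions it had 0.0448 to 0.165 FPKM.

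Kcnj6, which can form channels alone or with Kcnj3, ran from hippocampus (4.10 ± 0.572) through cortex (2.67 ± 0.314) to cerebellum (1.49 ± 0.250). No read was counted on it in any of the 18 ventricular libraries, which allows a level of up to 0.00318 FPKM in the Gnb5+/+ group (3 counts over the group, counting error only), and atria had 2, 1 and 1 reads in all over the 6 mice of each genotype. Kcnj9, a subunit of neuronal heteromers, had 36.8 ± 3.15 FPKM in cortex, 32.2 ± 1.90 in cerebellum and 21.9 ± 2.28 in hippocampus, and at most 0.0331 in a heart group. Among 21890 protein-coding genes by mean level in Gnb5+/+ atria, Kcnj3 ranked 147, Chrm2 282 and Kcnj5 368.

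The order of heart against brain depended on the scale for Kcnj3 and Chrm3. Relative to TMM-scaled FPKM, the TPM scale (length-scaled transcript shares of a library, with no TMM factor) raised all levels 2.06-fold in atria, 1.36-fold in ventricles and 5.62-fold to 6.52-fold in the brain, so only differences between tissues beyond that shift are told apart. Kcnj3 in ventricles, 23.4 FPKM and level with the brain on the TMM scale, was lowest of the 5 tissues in TPM (31.8 against 106 to 149 in the brain). Chrm3 was higher in ventricles than in cerebellum in FPKM (0.142 against 0.0649) and lower in TPM (0.196 against 0.424). Atria had the most Kcnj3, Kcnj5 and Chrm2 on each scale, with 366, 168 and 215 TPM. Kcnj9 in cortex and cerebellum (208 and 210 TPM) and Kcnj3 in cerebellum and hippocampus (149 and 141) also exchanged places.

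The makeup of the transcript pool was described by each member's share of its family's summed FPKM in a mouse, which is a share of RNA and not of channels (stacked plot of shares). On the TMM scale the 4 subunits summed to 261 ± 40.6 FPKM in Gnb5+/+ atria and to 49.2 to 58.3 in the other 4 tissues. The TPM scale raises such sums 2.06-fold in atria, 1.36-fold in ventricles and 5.62-fold to 6.52-fold in the brain. The size of a difference between the heart and brain pools therefore depends on the scale. Kcnj3 was 68.0 ± 5.64% of the atrial pool and 47.8 ± 3.36% of the ventricular pool, and Kcnj5 was nearly all of the rest. The Kcnj3 share was higher in atria in 6 of 6 mice (exact two-sided test by sign flips, p = 0.0313, the smallest that 6 mice allow; 0.181 after Benjamini-Hochberg adjustment over 29 tests of shares). The ratio of Kcnj3 to Kcnj5 was 2.20 ± 0.518 in Gnb5+/+ atria and 0.921 ± 0.125 in ventricles.

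In the brain, Kcnj3 and Kcnj9 shared nearly the whole pool. Kcnj9 was 63.0% in cortex, 56.9% in cerebellum and 42.8% in hippocampus, and Kcnj3 was 32.1%, 40.4% and 49.0%. Kcnj6 was 4.60% in cortex, 2.62% in cerebellum and 8.06% in hippocampus. With the length of the longest transcript in place of all exons, Kcnj6 rose to 8.63%, 5.05% and 14.9%, since its counted exons (7633 bases) are long against its longest transcript (3627 bases).

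Chrm2 was 99.4% of the receptor pool in Gnb5+/+ atria and 99.6% in ventricles. Chrm1 led in hippocampus (61.9%) and cortex (46.3%), with Chrm4 at 15.6% and 31.9% and Chrm3 at 16.02% and 15.8%. In the cerebellum the 5 receptors summed to 1.24 FPKM, of which Chrm2 was 65.2% and Chrm4 19.9%.

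**Figure D2:**
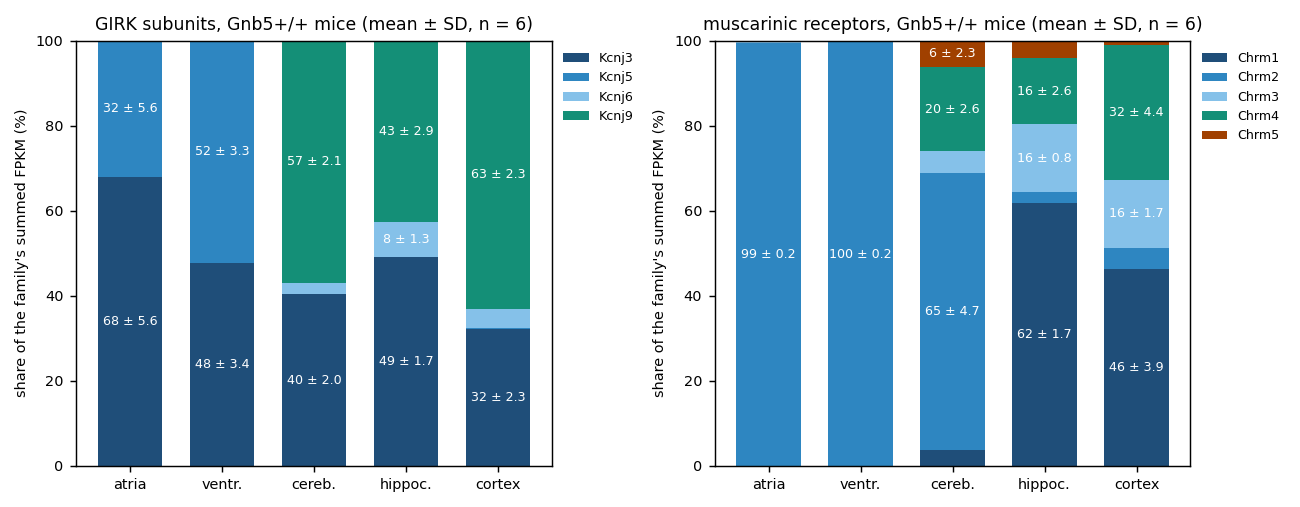
Share of each gene (percent of the summed FPKM of its family, y axis) in the 5 tissues of Gnb5+/+ mice (x axis), for the 4 channel subunits and the 5 receptors, as stacked means of 6 mice with SD. Kcnj3 and Kcnj5 filled the heart pool and Kcnj3 and Kcnj9 the brain pool, and Chrm2 was 99.4% and 99.6% of the receptor pool in atria and ventricles.

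Atria and ventricles of the same Gnb5+/+ mice were compared with edgeR's quasi-likelihood test with the mouse as a block and Benjamini-Hochberg adjustment over 15147 genes. All 4 members that could be tested were higher in atria, where 26.1% of all genes tested were called higher, 26.6% lower and 52.7% in either direction. The log2 difference was 2.89 for Kcnj3 (7.44-fold, SE 0.138, adjusted p = 4.21e-09), 1.67 for Kcnj5 (3.17-fold, SE 0.0953, adjusted p = 2.04e-08), 1.27 for Chrm2 (2.42-fold, SE 0.103, adjusted p = 4.46e-07) and 1.90 for Chrm3 (3.74-fold, SE 0.277, adjusted p = 8.25e-05). Each was higher in 6 of 6 mice and the groups overlapped for none. Chrm3, at 5 to 28 reads in Gnb5+/+ ventricular libraries and 73 to 163 in atrial ones, passed the filter on low counts only through the atria. The filter thus favored its call as higher, and it is counted among the 4. The median over these members was 1.78, and over all genes -0.0011. In TPM the members were also higher in atria, by 366 against 31.8 for Kcnj3, 168 against 35.5 for Kcnj5, 215 against 57.8 for Chrm2 and 1.11 against 0.196 for Chrm3.

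Between brain regions of Gnb5+/+ mice the members went in both directions. For hippocampus against cortex, 8 of 9 members were called, where 55.9% of the 18577 genes tested were called. In hippocampus against cortex, Kcnj3 (0.43 on the log2 scale), Kcnj6 (0.63), Chrm1 (0.44) and Chrm5 (2.18) were higher, where 27.3% of genes were called higher. Kcnj5 (-0.91), Kcnj9 (-0.74), Chrm2 (-1.05) and Chrm4 (-1.02) were lower, where 28.6% of genes were called lower, and Chrm3 differed by 0.04 (edgeR, adjusted p = 0.769). With DESeq2 the Chrm1 difference missed the threshold (adjusted p = 0.104).

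In cerebellum all 5 receptors were lower than in cortex or hippocampus, by very different amounts. Against cortex, all 9 members were called (81.2% of genes were called in either direction), with Kcnj3 higher (0.35; 39.2% of genes were called higher) and the other 8 lower (42% of genes were called lower). Chrm1 was 448-fold lower, Chrm3 109-fold and Chrm4 56.4-fold, while Chrm2 (-1.46 on the log2 scale), Kcnj5 (-1.83), Kcnj6 (-0.79) and Chrm5 (-2.36) differed less. Chrm5, at 3 to 10 reads per cerebellar library, passed the filter on low counts only through the forebrain, and so had to be lower in cerebellum. Kcnj5, Chrm1 and Chrm3, with as few as 5, 7 and 7 reads in a Gnb5+/+ cerebellar library, also passed only through the forebrain. The filter thus favored their lower calls, and the number of lower members depends on it. Kcnj9 was lower by a log2 difference of -0.13 (edgeR, adjusted p = 0.0465), a call that was lost without the mouse as a block (adjusted p = 0.0673).

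Against hippocampus, 8 of 9 members were called in cerebellum (80.8% of genes). Kcnj9 was higher (0.60 on the log2 scale; 39.6% of genes were called higher) and 7 were lower (41.2% of genes were called lower), with Chrm1 610-fold, Chrm3 112.5-fold, Chrm4 27.8-fold, Chrm5 23.3-fold, Kcnj6 2.67-fold, Kcnj5 1.90-fold and Chrm2 1.33-fold lower. Of the lower members, Chrm1, Chrm3, Chrm5 and Kcnj5 passed the filter on low counts only through the forebrain. Their lower calls, and the number of lower members, therefore depend on the filter here too. Kcnj3 differed by -0.09 (edgeR, adjusted p = 0.174).

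The question of the genotype comparisons was whether the receptor and channel genes change when the brake on their signal is lost. In atria they were not detectably changed. Chrm2 had 97.2 ± 8.66 FPKM in Gnb5-/- atria (lowest 89.5, median 94.5, highest 109) and 97.5 ± 13.7 in Gnb5+/- atria (75.8, 98.5 and 115), beside 105 ± 16.5 in Gnb5+/+. The 3 genotypes overlapped throughout. The log2 change of Chrm2 in Gnb5-/- against Gnb5+/+ was -0.12 (95% interval -0.34 to 0.10).

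Kcnj3 had 171 ± 11.6 FPKM in Gnb5-/- atria (156, 174 and 185) and 190 ± 17.9 in Gnb5+/- (162, 195 and 206). Both groups lay within the range of the Gnb5+/+ mice, 117.2 to 230. Its log2 change was -0.07 (interval -0.32 to 0.19) in Gnb5-/-. Kcnj5 had 82.1 ± 11.1 FPKM in Gnb5-/- atria (66.2, 80.6 and 97.0) and 83.4 ± 11.01 in Gnb5+/-, with a log2 change of 0.01 (interval -0.18 to 0.19) in Gnb5-/-. The ratio of Kcnj3 to Kcnj5 was 2.12 in Gnb5-/- and 2.30 in Gnb5+/- atria. The markers of a sinoatrial list summed to 17.3 to 49.3 CPM in Gnb5+/+, 32.6 to 66.3 in Gnb5+/- and 12.4 to 71.0 in Gnb5-/- atria, and ventricular muscle markers to 73.2 to 1334, 42.5 to 686 and 114 to 440 CPM. The medians of the sinoatrial list were 21.7, 52.0 and 45.5 CPM in Gnb5+/+, Gnb5+/- and Gnb5-/- atria, and those of a white fat list 18.1, 35.99 and 48.4 CPM (highest mouse 343 in Gnb5-/-). In Gnb5+/+ ventricles the sinoatrial list had a median of 37.0 CPM, above that of Gnb5+/+ atria, so it was not particular to the atria. The part of these sums in the members' levels was not tested.

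Among the 4 members that could be tested in atria, Chrm3 had the largest change in Gnb5-/-. It had 0.689 ± 0.0693 FPKM in Gnb5-/- (0.626, 0.668 and 0.800) and 0.621 in Gnb5+/- beside 0.536 ± 0.127 in Gnb5+/+. All 6 Gnb5-/- mice were above the Gnb5+/+ mean, but the groups overlapped. The log2 change of 0.36 (SE 0.157, interval 0.03 to 0.69) had an unadjusted p of 0.0329 in edgeR's quasi-likelihood test and an adjusted p of 0.549, with 0.471 to 0.696 over the alternatives. In atria 0 of 4 members tested were called between Gnb5-/- and Gnb5+/+, where 0.253% of the 16181 genes tested were called, and for 0 of 4 did the groups not overlap (0.606% of genes). DESeq2 called none either, and 1 member, Chrm3, had an unadjusted edgeR p below 0.05.

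In ventricles, Chrm2 had 41.6 ± 6.70 FPKM in Gnb5-/- (32.1, 43.8 and 47.8) and 45.7 ± 12.8 in Gnb5+/- (25.2, 45.5 and 59.9), beside 42.9 ± 3.75 in Gnb5+/+. The lowest value was that of Gnb5+/- mouse 4, whose library stood apart. Kcnj3 had 21.5 ± 3.71 FPKM in Gnb5-/- (16.2, 21.1 and 26.7), 28.0 ± 5.67 in Gnb5+/- (20.8, 27.8 and 36.9) and 23.4 ± 1.77 in Gnb5+/+ (21.7, 22.9 and 26.7). The 3 groups overlapped, with the highest mice among the Gnb5+/-. Kcnj5 had 22.4 ± 2.29 FPKM in Gnb5-/- (19.3, 23.3 and 24.8), 27.0 in Gnb5+/- and 25.8 ± 3.97 in Gnb5+/+. All 6 Gnb5-/- mice were below the Gnb5+/+ mean of Kcnj5, and 2 of them, at 19.3 and 19.8, were below the lowest Gnb5+/+ mouse (20.4).

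Against Gnb5+/+, the log2 change in Gnb5-/- ventricles was -0.13 for Kcnj3 (interval -0.40 to 0.14), -0.21 for Kcnj5 (-0.45 to 0.03), -0.05 for Chrm2 (-0.39 to 0.28) and 0.14 for Chrm3. Of 4 members tested, 0 were called by edgeR or DESeq2 or had an unadjusted edgeR p below 0.05, where 0.188% of 14866 genes were called, and the groups of each overlapped (0.538% of genes did not overlap). Against Gnb5+/-, Kcnj3 changed by -0.39 (SE 0.128, interval -0.65 to -0.12) and Kcnj5 by -0.28 (SE 0.117), each lower in 6 of 6 Gnb5-/- mice than the Gnb5+/- mean. Their unadjusted p-values in edgeR's test were 0.00665 and 0.0278, and both missed the threshold after adjustment (0.411 and 0.498). Without Gnb5+/- mouse 4 the changes were -0.44 and -0.36 (edgeR adjusted p = 0.212 and 0.194), and that of Chrm2 went from -0.15 to -0.27. Chrm3 changed by 0.15. That comparison called no member by edgeR or DESeq2, where 0.0874% of genes were called.

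The Gnb5+/- means of Kcnj3 did not lie between those of the other genotypes. The log2 change of Kcnj3 in Gnb5+/- against Gnb5+/+ was 0.26 in ventricles (interval -0.01 to 0.52, edgeR adjusted p = 0.961) and 0.09 in atria. For Kcnj5, Chrm2 and Chrm3 it was 0.07, 0.09 and -0.01 in ventricles and 0.03, -0.11 and 0.22 in atria, and without Gnb5+/- mouse 4 the ventricular change of Chrm2 was 0.22 (edgeR adjusted p = 0.726). No member was called by edgeR or DESeq2 or had an unadjusted edgeR p below 0.05 in either tissue (0.0202% and 0.0124% of genes were called). No member was called by either tool between Gnb5-/- and Gnb5+/- atria either, with 0 at an unadjusted edgeR p below 0.05 (0.0494% of genes) and log2 changes of -0.16 for Kcnj3, -0.03 for Kcnj5, -0.01 for Chrm2 and 0.15 for Chrm3. The difference of the Gnb5-/- effect between ventricles and atria was -0.10 for Kcnj3, -0.19 for Kcnj5, 0.05 for Chrm2 and -0.24 for Chrm3 on the log2 scale, with 0 of 4 called by edgeR or DESeq2 and 0 at an unadjusted edgeR p below 0.05 (0.00622% of genes).

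**Figure D3:**
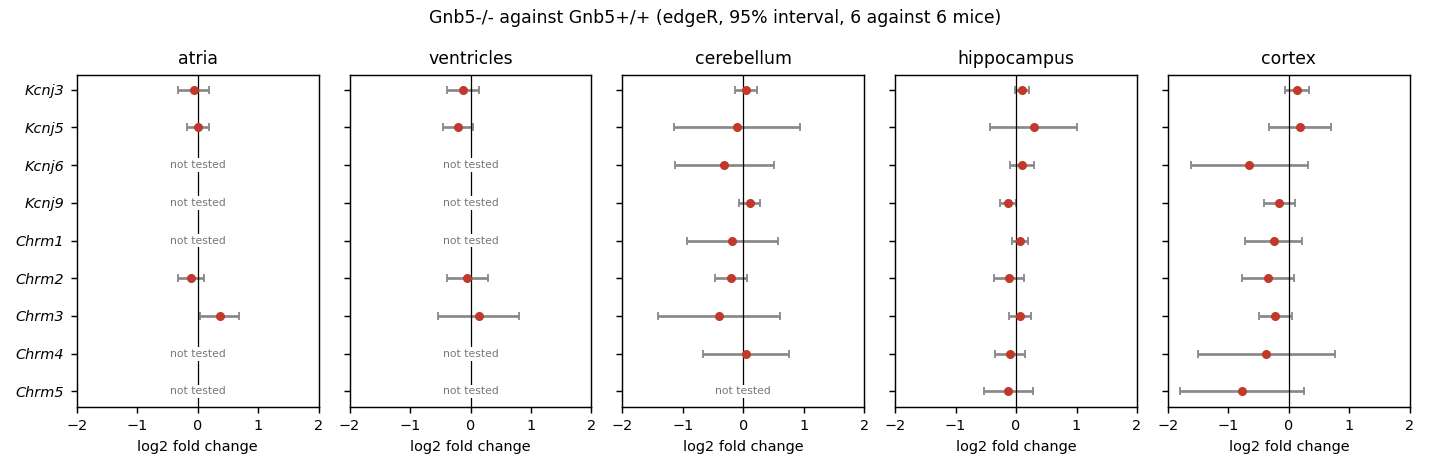
Log2 change in Gnb5-/- against Gnb5+/+ mice (x axis) of the 9 genes in the 5 tissues, as edgeR's estimate with its 95% interval, and a note where a gene was too low to be tested. The atrial estimates of Kcnj3, Kcnj5 and Chrm2 lie between -0.12 and 0.01, and the widest intervals are those of the lowest genes and of Kcnj6, Chrm4 and Chrm5 in the cortex.

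In hippocampus the members' levels in Gnb5-/- were close to those of Gnb5+/+, with log2 changes between -0.13 and 0.29. Kcnj9 had 19.99 ± 1.295 FPKM in Gnb5-/- (18.4, 20.2 and 21.3) beside 21.9 ± 2.28 in Gnb5+/+ (17.8, 22.8 and 23.95). All 6 Gnb5-/- mice lay below the Gnb5+/+ mean, and the groups overlapped (log2 change -0.13, SE 0.0646, edgeR adjusted p = 0.663). Chrm1 had 29.8 ± 2.87 FPKM in Gnb5-/- beside 28.4 ± 1.46 (log2 change 0.06, interval -0.06 to 0.19), and Kcnj3 26.7 ± 2.36 beside 25.03 ± 1.33 (0.09, interval -0.02 to 0.21). The log2 changes of the others were 0.29 for Kcnj5, 0.09 for Kcnj6, -0.12 for Chrm2, 0.06 for Chrm3, -0.10 for Chrm4 and -0.13 for Chrm5. Neither edgeR nor DESeq2 called a member, and 0 had an unadjusted edgeR p below 0.05, where 0.165% of 17588 genes were called. The groups overlapped for all 9 members (0.648% of genes did not overlap).

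In cerebellum, 8 members could be tested. Kcnj9 had 34.6 ± 4.21 FPKM in Gnb5-/- beside 32.2 ± 1.90, and Kcnj3 23.6 ± 2.44 beside 22.9 ± 1.98, with log2 changes of 0.10 and 0.05. Chrm2 had 0.701 ± 0.115 FPKM in Gnb5-/- (0.477, 0.739 and 0.798) beside 0.807 ± 0.0782 (0.730, 0.782 and 0.947), lower in 6 of 6 mice than the Gnb5+/+ mean, with a log2 change of -0.20 (interval -0.47 to 0.06). The lowest was mouse 12, whose library stood apart, and without it the Gnb5-/- mean was 0.746 and the log2 change -0.11. Kcnj6 changed by -0.31 with mouse 12 and by -0.08 without it, and Chrm4 by 0.04 and 0.26. The log2 changes of the lowly expressed Kcnj5, Chrm1 and Chrm3 were -0.10, -0.18 and -0.40, and -0.53, -0.20 and -0.64 without mouse 12. Of these 8 members 0 were called by edgeR or DESeq2 or had an unadjusted edgeR p below 0.05, where 0.0817% of 17139 genes were called, and the groups of each overlapped (1.1% of genes did not overlap).

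Chrm5 was too low in cerebellum for the edgeR fit. Its reads numbered 0 to 4 per library in Gnb5-/- and 3 to 10 in Gnb5+/+, or 0.0243 ± 0.0165 and 0.0757 ± 0.0258 FPKM. All 6 Gnb5-/- mice were below the Gnb5+/+ mean and the groups overlapped (exact permutation test over 924 divisions, two-sided p = 0.00866, not adjusted; 0.0108 without mouse 12). At so few reads per library the depth limits what can be told of this difference.

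In cortex the 2 libraries that stood apart held the lowest values of Kcnj6, Kcnj9, Chrm1, Chrm2, Chrm3, Chrm4 and Chrm5 (plot of levels against reads outside genes). Kcnj6 had 0.203 FPKM in mouse 14 and 0.576 in mouse 3, and 2.17, 2.24, 2.45 and 2.51 in the other Gnb5-/- mice, against 2.41 to 3.17 in Gnb5+/+. The last 2 of these lay within the Gnb5+/+ range. Its log2 change was -0.66 (interval -1.62 to 0.31, edgeR adjusted p = 0.483), and -0.19 without mice 14 and 3. Chrm4 had 2.36% of the Gnb5+/+ mean in mouse 14 and 55.5% in mouse 3, and its log2 change went from -0.37 to 0.02 without them.

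Chrm2 in cortex had 0.713 FPKM in mouse 14 and 1.65 in mouse 3, and 2.03 to 2.20 in the other 4 Gnb5-/- mice, against 2.12 to 2.41 in Gnb5+/+. All 6 Gnb5-/- mice lay below the Gnb5+/+ mean of 2.30 ± 0.111, and the groups overlapped. The exact permutation test gave a two-sided p of 0.00433, not adjusted, and 0.0190 without mice 14 and 3, when 4 mice remained and the log2 change went from -0.34 to -0.13. In edgeR's test the p was 0.104 before adjustment and 0.474 after adjustment over 17967 genes.

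Chrm5 in cortex had 0 FPKM in mouse 14, 0.155 in mouse 3 and 0.240 to 0.372 in the other 4 Gnb5-/- mice, against 0.307 to 0.564 in Gnb5+/+. The log2 change was -0.77 (edgeR adjusted p = 0.474), and -0.37 without these 2 libraries (exact permutation p = 0.0390 with them and 0.143 without). Kcnj3, the subunit that kept its level in both libraries (119% and 102% of the Gnb5+/+ mean), had 18.2 to 22.3 FPKM in Gnb5-/- and 17.3 to 20.2 in Gnb5+/+ (log2 change 0.14, and 0.09 without them). With all libraries and without these 2, the log2 changes of Chrm1 were -0.25 and 0.01, of Chrm3 -0.22 and -0.08, of Kcnj9 -0.16 and -0.03, and of Kcnj5 0.19 and 0.29. No member was called in cortex by edgeR or DESeq2, or by edgeR without the 2 libraries, and 0 had an unadjusted edgeR p below 0.05 with them, where 0.0557% of genes were called. The groups overlapped for all 9 (0.601% of genes did not overlap).

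The loss in these libraries was not the same for each member. In mouse 14 Chrm1 had 32.1%, Chrm2 31.0%, Kcnj9 56.3% and Chrm3 55.4% of the Gnb5+/+ mean, and in cerebellum of mouse 12 Kcnj6 had 10.6%, Chrm4 20.2%, Chrm2 59.1% and Kcnj3 84.3%. In the ventricles of Gnb5+/- mouse 4, Chrm2 had 58.8%, Kcnj5 77.5% and Kcnj3 101%. The part of the libraries' other differences in these values was not tested.

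**Figure D4:**
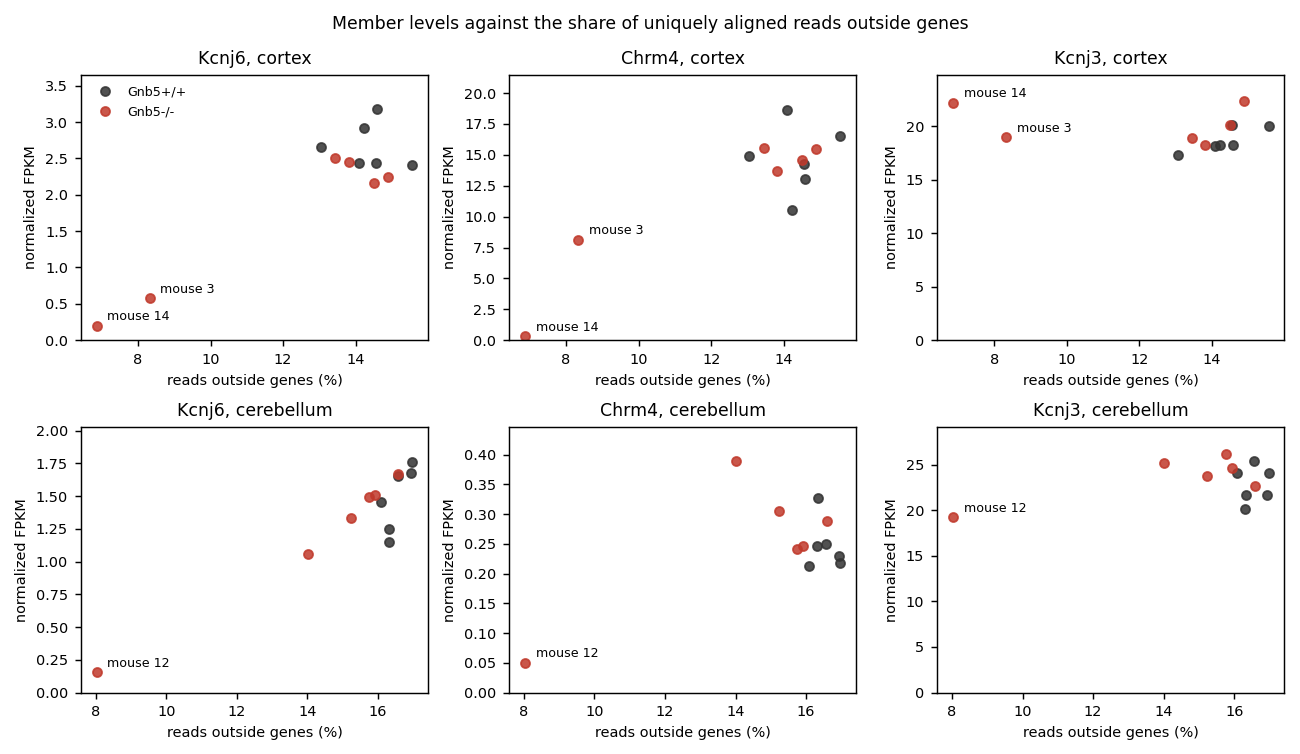
Normalized FPKM of Kcnj6, Chrm4 and Kcnj3 (y axes) against the percentage of uniquely aligned reads outside genes (x axis) in cortex and cerebellum, 1 point per mouse, colored by genotype. Gnb5-/- mice 14 and 3 in cortex (6.86% and 8.32%) and 12 in cerebellum (8.02%) sit to the left with the lowest Kcnj6, whereas their Kcnj3 lies at 84.3% to 119% of the Gnb5+/+ mean.

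Between brain regions, 0 of 9 members had a Gnb5-/- effect that differed after adjustment in any of the 3 pairs, by edgeR or DESeq2. Chrm5 differed between cerebellum and hippocampus by -1.41 on the log2 scale (edgeR adjusted p = 0.884) and was the 1 member with an unadjusted p below 0.05. It entered this fit only through the forebrain. Its cerebellar libraries held 0 to 4 reads in Gnb5-/- and 3 to 10 in Gnb5+/+ mice, so this difference cannot be judged. Of all genes, 0% were called for hippocampus against cortex, 0.0103% for cerebellum against cortex and 0.0258% for cerebellum against hippocampus.

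None of 29 tests of shares passed after adjustment, and the smallest adjusted p was 0.181. The smallest p possible was 0.00216 in the exact permutation tests over 12 mice and 0.0313 in those by sign flips. A single share that differed could therefore not pass alone after adjustment over 29 tests, so the absence of a call says little. In hippocampus Kcnj3 was 52.1% of the channel pool in Gnb5-/- and 49.0% in Gnb5+/+ (exact permutation p = 0.0152, not adjusted), and Kcnj9 39.1% and 42.8% (exact permutation p = 0.0455). In cortex Kcnj6 was 2.94% and 4.60% (exact permutation p = 0.0238), and 4.00% in Gnb5-/- without mice 3 and 14 (exact permutation p = 0.1). Chrm5 was 2.11% of the receptor pool in Gnb5-/- cerebellum and 6.16% in Gnb5+/+ (exact permutation p = 0.00866), and 2.53% in Gnb5-/- without mouse 12 (exact permutation p = 0.0152). The Chrm4 share of the cerebellum was 22.5% in Gnb5-/- and 19.9% in Gnb5+/+ (exact permutation p = 0.498), and 25.5% in Gnb5-/- without mouse 12 (exact permutation p = 0.0195, adjusted 0.181).

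Chrm2 and Kcnj3 varied together between mice of the heart. After the genotype mean was subtracted, their log2 normalized counts correlated over the 18 atrial libraries with r = 0.712 and rho = 0.645 (permutation p = 0.00107 and 0.0043, adjusted over 6 pairs 0.00321 and 0.0129). Over the 18 ventricular libraries r was 0.721 and rho 0.781 (permutation p = 0.00069 and 0.00024, adjusted 0.00321 and 0.00144). Without the 2 libraries farthest from the median of Chrm2 r was 0.624 in atria and 0.772 in ventricles. Within genotypes r was 0.86, 0.846 and -0.02 in Gnb5+/+, Gnb5+/- and Gnb5-/- atria, and 0.419, 0.776 and 0.72 in ventricles, so the atrial relation was not seen in Gnb5-/- mice. Whether it differed between genotypes was not tested.

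The other 4 pairs did not pass the threshold. Kcnj3 and Kcnj5, which form 1 channel, had r = 0.033 in atria and 0.455 in ventricles, and the ventricular r of Chrm2 and Kcnj5, 0.453, was -0.027 without Gnb5+/- mouse 4. Without that library r of Chrm2 and Kcnj3 in ventricles was 0.76, and without Gnb5+/+ mouse 17, which had the lowest Kcnj3, the atrial r was 0.651. The correlation across genes between a library's deviation and log2 exon length also varied between these libraries. It was 0.193 and 0.228 in atria of Gnb5+/+ mice 15 and 16, which were highest in both genes in their group, and -0.174 in Gnb5+/- mouse 11, which was lowest in both. In ventricles it was 0.24 and 0.15 in Gnb5+/- mice 6 and 13, which had the highest levels of both genes. Other atrial libraries went the other way for Kcnj3. Of these, Gnb5+/- mouse 4 had 0.133 with 176 FPKM (range of its group 162 to 206). Gnb5+/+ mouse 18 had -0.142 with 182 FPKM (median of its group 173). In ventricles, Gnb5+/- mouse 4 had -0.669 with 23.6 FPKM of Kcnj3, and mouse 2 had -0.038 with 20.8 FPKM. The other Gnb5+/- ventricular libraries had 0.117 to 0.24 with 27.4 to 36.9 FPKM, so both values were lower in these mice. The part of this exon-length correlation in the relation of Chrm2 and Kcnj3 was not tested.

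**Figure D5:**
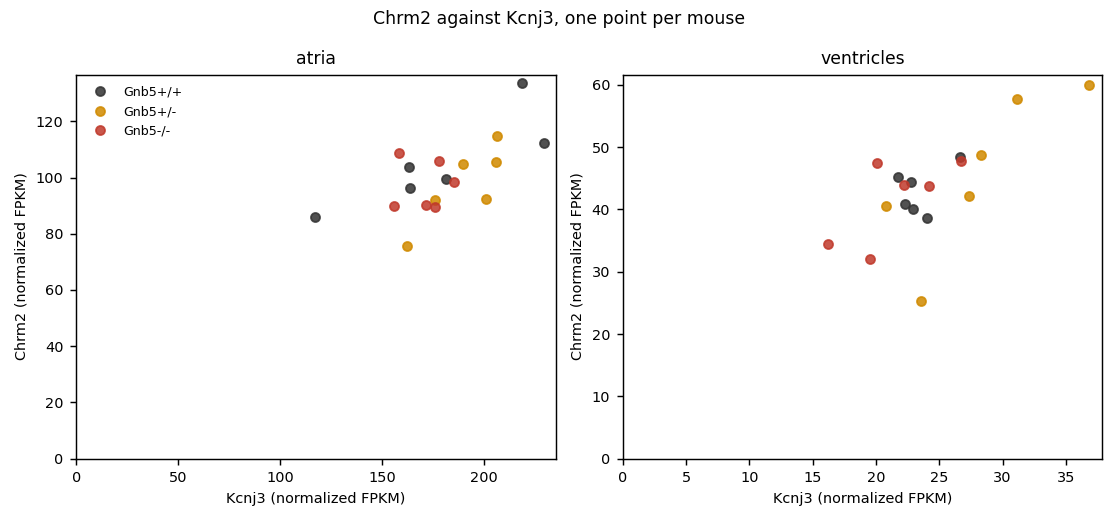
Normalized FPKM of Kcnj3 (x axis) and Chrm2 (y axis), 1 point per mouse, atria and ventricles in separate panels, colored by genotype. Mice with more Chrm2 tended to have more Kcnj3 (r = 0.712 in atria and 0.721 in ventricles after subtracting genotype means), with all atrial values of Kcnj3 at 117.2 FPKM or more and all ventricular ones at 36.9 or less.

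The other genes of the pathway were taken as 36 genes in 6 lists, covering acetylcholine handling, Gi/o alpha subunits, Gq/11 and phospholipase C beta, the R7 RGS complex, other receptors coupled to GIRK channels, and channel partners. In the genotype comparisons 26 to 36 of them could be tested and 2 were called, where 0.0124% to 0.253% of all genes were called. Gnb5, the deleted gene, was lower in each of the 9 comparisons with fewer intact alleles, as the design sets. Drd2, the D2 dopamine receptor, rose in Gnb5-/- ventricles (2.25 ± 0.544 FPKM against 1.23 ± 0.201, log2 change 0.85, SE 0.173, edgeR adjusted p = 0.0398), and its effect differed from that in atria by 0.78 with an adjusted p of 0.810. Of the partners of Gnb5, Rgs7 changed by 0.77 in Gnb5-/- ventricles (edgeR adjusted p = 0.431) and Gpr158, a membrane anchor of RGS7, by -0.70 in Gnb5-/- atria (adjusted p = 0.175), and neither passed the threshold.

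Between atria and ventricles of Gnb5+/+ mice, 14 of the 28 pathway genes tested were higher in atria and 7 were lower. Over all genes tested 26.1% were called higher and 26.6% lower. Gnao1, the alpha-o subunit, had 26.8 FPKM in atria and 3.94 in ventricles (log2 difference 2.77), and Gnai1 was higher by 1.23. Rgs6, the R7 RGS protein of the atrial brake, had 10.4 FPKM against 2.54 (2.05), Rgs7 had 3.42 against 0.347 (3.30), and Ache, which degrades acetylcholine, 2.83 against 0.769 (1.85). Gnb5 itself differed by 0.16 (edgeR adjusted p = 0.134). Rgs7bp, an R7 anchor (-1.26), Colq, the collagen tail of acetylcholinesterase (-2.18), the cholinesterase Bche (-0.67), Gnai2 (-0.32), Rgs4, an RGS protein that binds GIRK channels (-1.31), and Snx27, a sorting protein of GIRK channels (-0.22), were among those lower in atria. Chat and Slc18a3, which make and package acetylcholine, were at 0 in 4 or 5 of 6 atrial libraries per group and in all ventricular ones.

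Between brain regions the pathway genes went in both directions. In hippocampus against cortex 8 of 36 were higher and 18 lower (27.3% and 28.6% of all genes), the latter including Chat (-6.37), Slc18a3 (-4.36), Slc5a7, the choline transporter (-3.09), and Rgs6 (-2.48), while Kctd12, a GABA-B receptor partner (1.28), and Htr1a, a serotonin receptor (1.46), were higher. In cerebellum 12 were higher and 20 lower against cortex (39.2% and 42% of all genes), and 12 and 20 against hippocampus (39.6% and 41.2%). Plcb4, a phospholipase C of Purkinje cells (2.48 against cortex), and Kctd12 (1.85) were among the higher ones, and Rgs4 (-4.69), Sstr2 (-5.34) and Htr1a (-7.49) among the lower.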

How the data were processed

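The members and gene lists were chosen with earlier results of these data known. The authors trimmed reads (cutadapt 1.8), aligned them to GRCm38 (STAR 2.5.3a) and counted unique reads per Ensembl gene (HTSeq 0.9.1), and the deposited values are these raw counts, 1 file per library. Versions are from the submitters' processing notes. Of 53715 identifiers, 53620 matched GENCODE M21, the source of positions and merged exon lengths. Counts were scaled by TMM, filtered with filterByExpr (count minimum 10) and tested with edgeR 4.0.16 (R 4.3.3), quasi-likelihood, Benjamini-Hochberg over all genes tested, threshold 0.05, 95% intervals. Genotypes were compared within a tissue under genotype alone, tissues and differences of effects with the mouse as a block. Permutation tests of levels (924 divisions of 12 mice, smallest p 0.00216) and of correlations (100000 resamples) used log2 CPM with prior count 2. Those of shares used the percentage per mouse, over the same divisions or, between atria and ventricles, 64 sign flips. With libraries left out, 210 divisions remained in cortex and 462 in cerebellum. These computations ran in Python 3.11.15, with scipy 1.17.1 installed. The code was tested on simulated data with known changes.

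Named genes were the members, with every one tested given a value between genotypes within a tissue, and every pathway gene called between genotypes. Other pathway genes, and the libraries left out by mouse, were named after values were seen. Alternatives were DESeq2 1.42.0, RLE factors, no filter, a replicate block, 2 genotypes alone, other length units and leaving out libraries.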

Additional observations from a re-analysis of the deposited data

Results flagged for a closer look

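Values of 1 mouse that lay far from the other 5 of its group were found in 5 of 76 groups of a member with a mean count of at least 10, where the gap to the nearest mouse exceeded 0.625 of the group's range (Dixon's limit for 6 values). Chance alone gives about 1 in 20 groups, so this number is near what chance gives.

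In cortex, Chrm2 of Gnb5-/- mouse 14 was 0.713 FPKM, with the next mouse at 1.65. In cerebellum, Chrm2 of Gnb5-/- mouse 12 was 0.477 FPKM, with the next at 0.695. Both libraries had few reads outside genes, 6.86% and 8.02%, and the part of this was not tested. Kcnj5 of Gnb5+/+ mouse 18 was 75.9 FPKM in atria, below the next mouse at 81.2. In cerebellum Chrm4 of Gnb5+/+ mouse 7, at 0.327 FPKM, was above the next at 0.250. Chrm5 of Gnb5-/- mouse 5 was 0.823 FPKM in hippocampus, and the next mouse had 1.74.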

How the results depend on the processing

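No alternative called a member between genotypes, and those that could be fitted changed a member's call only between brain regions: hippocampus against cortex went from 8 to 7 members with DESeq2, and Kcnj9 in cerebellum against cortex was lost without the mouse as a block. The number of all genes called moved more. With DESeq2 the genes called in Gnb5-/- against Gnb5+/+ went from 41 to 110 in atria, 28 to 63 in ventricles, 14 to 49 in cerebellum, 29 to 104 in hippocampus and 10 to 25 in cortex. DESeq2 also took Gnb5+/- against Gnb5+/+ atria from 2 to 7, Gnb5-/- against Gnb5+/- from 8 to 26 in atria and 13 to 69 in ventricles, and the differences of effects from 1 to 16 (ventricles and atria), 2 to 20 (cerebellum and cortex) and 5 to 9 (cerebellum and hippocampus).

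With 2 genotypes alone the counts were 20 (Gnb5-/- against Gnb5+/+) and 13 (against Gnb5+/-) in atria and 1 (Gnb5+/- against Gnb5+/+) in ventricles. Without a filter the heart difference of effects called 135 genes. The replicate numbers do not pair the mice: of 54 pairs of same-numbered libraries 4 had deviations that correlated above 0.1 (range -0.242 to 0.147). A replicate block left 0 genes in ventricles of Gnb5+/-, 5 in cerebellum, 19 in hippocampus and 6 in cortex, and without the mouse as a block the difference between cerebellum and cortex called 4.

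Gnb5-/- against Gnb5+/+ called 25 genes in atria without Gnb5+/+ mouse 17, 62 in cerebellum without Gnb5-/- mouse 12, and in cortex 22 without mouse 14 and 26 without mice 3 and 14. Gnb5-/- against Gnb5+/- called 21 in ventricles without Gnb5+/- mouse 4. Without the 3 brain libraries the differences of effects called 3 (hippocampus and cortex), 15 (cerebellum and cortex) and 18 genes (cerebellum and hippocampus). The cause of these shifts was not tested. Levels in TPM moved beyond 1 SD in 33 cases and stayed within it in 1, and with the longest transcript's length 11 levels and shares moved and 52 did not.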

Other observations

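Over the means of the 12 groups, the protein-coding genes whose log2 pattern was most like a member's were given by Pearson's r, as a description. For Kcnj3 they were Fcamr (0.9933), Stmnd1 (0.9929) and Tat (0.9925). For Kcnj5 the closest was Cd300ld (0.999), and Chrm2 correlated with it at 0.9958 and Kcnj3 at 0.7177. For Chrm2 it was Tgfbr2 (0.9987), for Kcnj6 Slc16a14 (0.9984), for Kcnj9 Scrt1 (0.9999) and for Chrm1 Icam5 (0.9998). Tissue differences set nearly all of these patterns, since the 12 points come from 5 tissues.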
